A study of Homo sapiens with 3 samples.

Results

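The genes described here are the 10 core genes of polyamine metabolism and of its antizyme circuit: ODC1, AMD1, SRM, SMS, SAT1, SMOX, PAOX, OAZ1, OAZ2 and AZIN1. They were chosen by symbol, as every record of the deposited count files that carries that symbol, which gave 17 of 42269 RefSeq transcript records and 10 of 22825 genes. RNA was sequenced from MDA-MB-231, an established human triple-negative breast cancer cell line. The 3 libraries are biological replicates of 1 group, cells given a control siRNA at 50 nM in 2 transfections 24 h apart with a lipid reagent and collected 48 h after the last. Cells given any other siRNA are not analysed here, so no effect of a treatment can be read from these values, and every value belongs to 1 transfected line with no untransfected control beside it.

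Polyamines (putrescine, spermidine and spermine) are small positively charged molecules that bind RNA, DNA and chromatin and that dividing cells need. ODC1, ornithine decarboxylase, makes putrescine and opens the pathway. Its protein is a textbook substrate of the proteasome that needs no ubiquitin: antizyme binds an ODC1 subunit and delivers it for breakdown. Antizyme is itself made only when ribosomes shift reading frame on its mRNA, which polyamines promote, and antizyme inhibitor binds antizyme in place of ODC1. Much of this circuit therefore works after transcription, and mRNA levels do not measure it.

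The site at which ribosomes change frame is shown for OAZ1 and OAZ2 because it defines the antizyme family among the genes counted here. Both runs come from the GENCODE 29 transcripts (build GRCh38), 5′ to 3′, with the last codon of the first reading frame and the 2 bases after it in capitals. The annotation writes the frameshift by skipping 1 base between that codon and those 2 bases, and the skipped base is not in the printed runs. The OAZ1 run lies at chr19:2271428-2271458 on the plus strand, with base 2271443 skipped, and the OAZ2 run at chr15:64691500-64691530 on the minus strand, with base 64691515 skipped.
OAZ1: cctcggtggtgcTCCGAtgcccctcaccca
OAZ2: cctctgtggtgcTCCGAtgcccctcaccca
The runs were identical at 29 of 30 bases, inside the coding region of genes on different chromosomes.

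All 10 genes were detected, meaning 1 CPM (a count scaled to the size of its library) or more in each of the 3 libraries, and all passed the filter on low counts. Levels between genes are given as TPM, a count divided by transcript length and scaled to the same sum in every library. The median of the 10 genes was 115 TPM, against 23.09 TPM for the median of 12601 detected genes with a length. In percentiles of detected genes they ran from 27.3 for PAOX to 98.5 for OAZ1, with a median of 86.6. By mean TPM the order was OAZ1, SMS, AZIN1, SAT1, SRM, ODC1, OAZ2, AMD1, SMOX and PAOX, and SAT1 and SRM were the only neighbours whose ranges over the 3 libraries overlapped. This order depended on the length used, though OAZ1 stayed highest and PAOX lowest. With the median length over annotated transcripts, AZIN1 (337 TPM) stood above SMS (166) and OAZ2 (87.3) above ODC1 (77.7). SAT1 (69.8 TPM) then fell below SRM (119), OAZ2 and ODC1. With the longest matched transcript as the length, AZIN1 (136 TPM) fell below SAT1 (149) and SRM (143). On CPM, AZIN1 (254) stood above SMS (181). SAT1 (62.9 CPM) fell below ODC1 (105), AMD1 (86.0), SRM (71.6) and OAZ2 (64.15). In this bulk RNA, fewer cells with a transcript and less transcript per cell cannot be told apart.

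**Figure D1:**
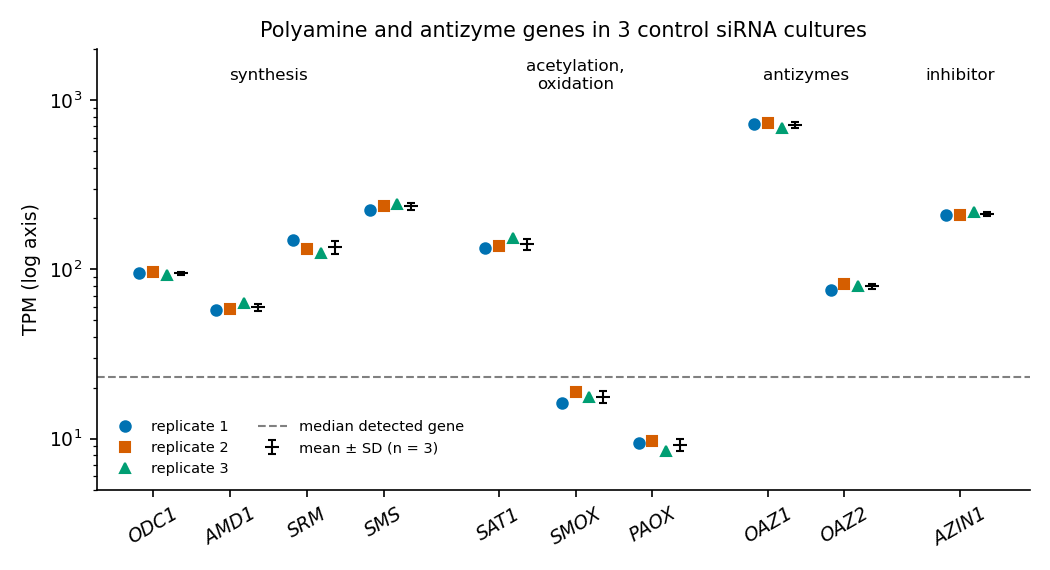
TPM on a log axis for each of the 10 genes, grouped by role, in the 3 control siRNA libraries (points) with the mean ± SD (black, n = 3); the dashed line is the median detected gene. OAZ1 lies between 685 and 734 TPM, and SMOX and PAOX are the only genes under the line, at 17.6 and 9.20 TPM on average.

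Among the synthetic enzymes, ODC1 mRNA was at 94.7, 97.0 and 92.8 TPM in replicates 1, 2 and 3 (94.8 ± 2.10, SD, n = 3). These 3 values lay close together, with replicate 2 the highest. AMD1 makes decarboxylated S-adenosylmethionine, the donor of the aminopropyl groups that turn putrescine into spermidine and spermine. Its levels were 57.5, 58.7 and 63.1 TPM (59.8 ± 2.94), highest in replicate 3 and the lowest of the 4 synthetic enzymes in each library. On CPM, SRM was lower than AMD1, with means of 71.6 and 86.0. ODC1 stood 1.65, 1.65 and 1.47 times above AMD1 (1.59 ± 0.103). With the median length over annotated transcripts the ratio was 2.91. Summing the records of each gene gave 0.862, but this counts the reads shared by the AMD1 records more than once.

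SRM, spermidine synthase, was at 149, 132 and 125 TPM (135 ± 12.1), below its partner enzyme in each library. SMS, spermine synthase, was at 225, 238 and 244 TPM (236 ± 9.66). The libraries were ordered oppositely for these enzymes, with SRM highest and SMS lowest in replicate 1. The level of SMS was therefore 1.51 times that of SRM in replicate 1, 1.80 times in replicate 2 and 1.95 times in replicate 3 (1.76 ± 0.223). Summed over ODC1, AMD1, SRM and SMS, synthesis transcripts came to 525.7, 525.9 and 524.6 TPM. Such a sum depends on the transcript lengths used, and whether the total varied less than its parts was not tested.

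Of the catabolic enzymes, SAT1, which acetylates spermidine and spermine, was the most abundant. Its levels were 133, 137 and 153 TPM (141 ± 10.7), with replicate 3 above the other libraries. SMOX oxidises spermine directly back to spermidine, and was at 16.2, 19.0 and 17.6 TPM (17.6 ± 1.41). PAOX, the peroxisomal enzyme that oxidises acetylated polyamines, was at 9.43, 9.75 and 8.41 TPM (9.20 ± 0.699). SMOX stood 1.92 ± 0.193 times above PAOX, and SAT1 stood 5.29 ± 0.560 times above their sum, with no overlap in any library. With CPM in place of TPM the latter ratio was 2.68, and with summed records, which repeat the shared reads of SMOX and PAOX, it was 1.70. Synthesis transcripts together were 3.31, 3.17 and 2.92 times the sum of the 3 catabolic transcripts (3.13 ± 0.197), and 5.14 times without division by length.

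OAZ1, the main antizyme, was the most abundant of the 10 transcripts in every library, at 725, 734 and 685 TPM (715 ± 26.1). OAZ2, its paralog with the same kind of frameshift site, was at 76.1, 81.5 and 80.3 TPM (79.3 ± 2.83). OAZ1 was 9.53, 9.01 and 8.53 times the level of OAZ2 (9.02 ± 0.502), highest in replicate 1, where OAZ2 was lowest. That ratio was 5.36 on CPM and 3.91 with the median length over annotated transcripts. AZIN1, antizyme inhibitor, resembles ODC1 in sequence but has lost the decarboxylase activity. Its levels were 211, 208 and 219 TPM (213 ± 5.61), and with the longer of its annotated transcripts as the length the mean would be 136 TPM. The longer record held fewer counts than the shorter (97.4% ± 0.0567). It has 2010 bases that the shorter lacks, and it lacks 146 bases that the shorter has.

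Set against their target, the 2 antizyme transcripts together were 8.46, 8.40 and 8.24 times the level of ODC1 (8.37 ± 0.112). The values varied little between the cultures, and OAZ1 alone stood 7.53 ± 0.141 times above ODC1. As ODC1 over antizymes the mean was 0.1195, against 0.182 with median transcript lengths and 0.259 on CPM, so ODC1 was the lower in each. AZIN1 was 2.23, 2.15 and 2.36 times the level of ODC1 (2.25 ± 0.108). As ODC1 over AZIN1 this mean was 0.446, and it was 0.226 with summed records, which repeat the shared reads of AZIN1, 0.231 with median lengths, 0.414 on CPM and 0.737 with the longer AZIN1 transcript. OAZ1 was 3.36 ± 0.209 times the level of AZIN1, a gap that depended on the length used. With median lengths OAZ1 and AZIN1 were at 341 and 337 TPM, and with summed records at 371 and 218 TPM. On CPM they were at 343 and 254. All ratios in this paragraph are between transcripts, not between the proteins that bind each other.

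In genome positions (GENCODE 29, GRCh38, not the hg19 build of the alignment), OAZ1 lies at chr19:2269509-2273490 on the plus strand and OAZ2 at chr15:64687573-64703281 on the minus strand. ODC1 lies at chr2:10439968-10448504 and SRM at chr1:11054584-11060024, both on the minus strand, and AMD1 at chr6:110874770-110895713 on the plus strand. SMS, at chrX:21940573-21994835, and SAT1, at chrX:23783173-23786226, share a chromosome and the plus strand. SMOX lies at chr20:4120980-4187747 and PAOX at chr10:133379234-133391694, both on the plus strand, and AZIN1 is on the minus strand of chromosome 8. The counted OAZ1 transcript shares 225 bases with an exon of JSRP1 on the other strand. Whether the counting used strand is not given in the sources used here, but JSRP1 had 0 counts in all 3 libraries. PAOX and OAZ1 also share 117 and 220 bases with longer same-strand gene models.

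The files give 1 record for 6 of the genes and several for AMD1, AZIN1, PAOX and SMOX, and reads appear to count once per overlapped record, so records of a gene are not independent. SMOX has a short record that lacks 1251 of the 2233 bases of the counted record. It held 47.0%, 44.2% and 47.9% of that record's counts in the 3 libraries, where its length is 44.0% of it. The other SMOX records, which lack 159 bases, held 96.2% ± 0.203 and 95.5% ± 0.441 of the counts, against 96.9% and 92.9% of the length. For the latter, the counts it lacked came to 264, 472 and 258 per kb of those bases, against 463, 680 and 400 per kb over the whole counted record. The PAOX records that lack 225 and 534 bases held 89.3% ± 1.26 and 72.3% ± 0.912 of the counts, against 87.9% and 71.3% of the length. Reads in shared bases count for each of these records, and the shares of the isoforms were not estimated. The second AMD1 record held 84.5%, 84.5% and 84.0% of the counts of the first, and no annotated transcript was matched to it.

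SAT1 mRNA is known to be spliced in an alternative form with an extra exon, which is broken down by nonsense-mediated decay and whose share falls when polyamines are plentiful. A record of that form is in the files without a gene symbol and was matched to SAT1 by its identifier, so it stands outside the counts above. The extra exon is shown because it separates this record from the counted one. It covers 110 bases at chrX:23784294-23784403 (GRCh38, plus strand), and its first in-frame stop codon, at base 12 of the exon, is in capitals.
SAT1 extra exon: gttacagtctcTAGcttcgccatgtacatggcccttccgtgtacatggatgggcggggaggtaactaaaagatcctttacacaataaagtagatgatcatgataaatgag
The record with the exon held 169, 187 and 180 more counts than the counted record in replicates 1, 2 and 3. In CPM the excess was 2.47, 2.21 and 3.29 (2.66 ± 0.563), or 4.03% ± 0.598 of the record with the exon, whose annotated ends are 40 bases shorter. The excess was largest in replicate 3, where the counted SAT1 record was also highest. Reads in shared exons appear to count for both records, so the 4.03% is not the share of the form with the exon. That share was not estimated. Whether the excess differed between the cultures was not tested.

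**Figure D2:**
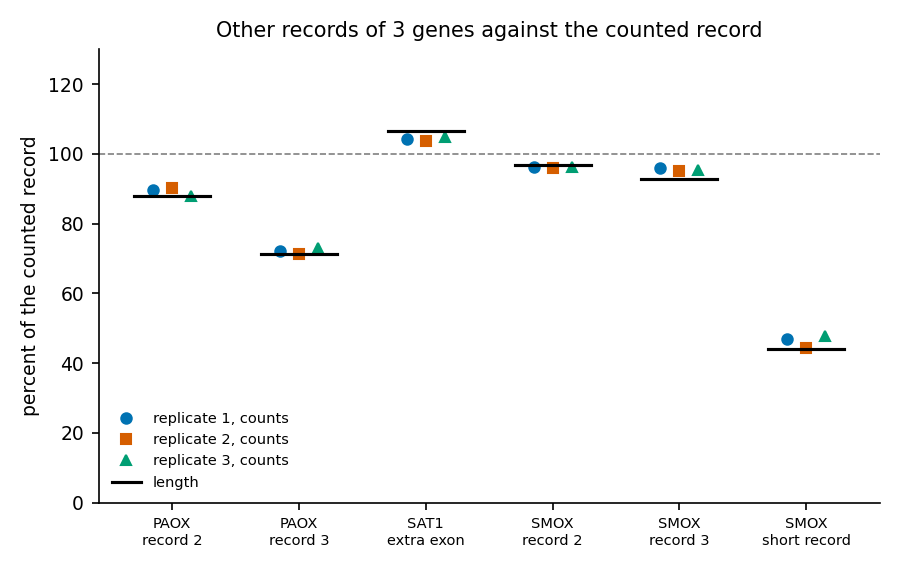
Counts of the other records of PAOX, SAT1 and SMOX in each library (points) and their lengths (black bars), both as a percent of the counted record of the gene (dashed line, 100). The short SMOX record lies at 44.2% to 47.9% of the counts and 44.0% of the length, and the SAT1 record with the extra exon is above 100 in every library.

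With 1 group, the test the data allow is whether the 3 cultures differed by more than counting noise. In an edgeR fit with a common mean and no variation between cultures, 9 of the 10 genes were called at a Benjamini-Hochberg adjusted p under 0.05. The same fit called 52.9% of the 14469 genes tested, a share that fell to 28.5% with each read pair counted once. The fold between the highest and lowest library had a median of 1.09 for the 10 genes and 1.11 for all tested genes. Neither this fold nor the share called is matched for level, and the 10 genes had a median percentile of 86.6. By level, the median fold of these genes against that of all detected genes was 1.185 against 1.127 at 5 to 20 CPM. It was 1.111 against 1.088 at 20 to 100 CPM, and 1.069 against 1.073 at 100 to 500 CPM. OAZ1 had the smallest p. Its CPM was 349, 356 and 325, a fold of 1.095 (edgeR adjusted p = 5.03e-20), and replicate 3 was below the other cultures. SRM, at 78.7, 70.6 and 65.4 CPM, had the widest fold, 1.20 (edgeR adjusted p = 2.16e-16), with replicate 1 the highest. Among the 5393 genes between 20 and 100 CPM, that fold lay at percentile 96.0.

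SAT1 differed 1.14-fold (59.4, 61.8 and 67.6 CPM, edgeR adjusted p = 3.88e-07) and SMS 1.07-fold (173, 185 and 185 CPM, adjusted p = 9.05e-08). Both were lowest in replicate 1. SMOX differed 1.19-fold (15.1, 17.9 and 16.3 CPM, edgeR adjusted p = 0.000392), also lowest there. AMD1, ODC1 and OAZ2 differed 1.08-fold, 1.07-fold and 1.08-fold (edgeR adjusted p = 0.000721, 0.00143 and 0.00221). AZIN1 was at 252, 252 and 259 CPM, and its 1.03-fold range had an edgeR adjusted p of 0.0417 and lay at percentile 11.1 of the 2075 genes between 100 and 500 CPM. PAOX, at 7.34, 7.66 and 6.46 CPM, did not pass the test (1.18-fold, edgeR adjusted p = 0.0608), with only 354 to 649 counts per library. Replicate 2 was the highest library for 5 of the genes, replicate 3 for 4 and replicate 1 for 1, so no library was high throughout.

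**Figure D3:**
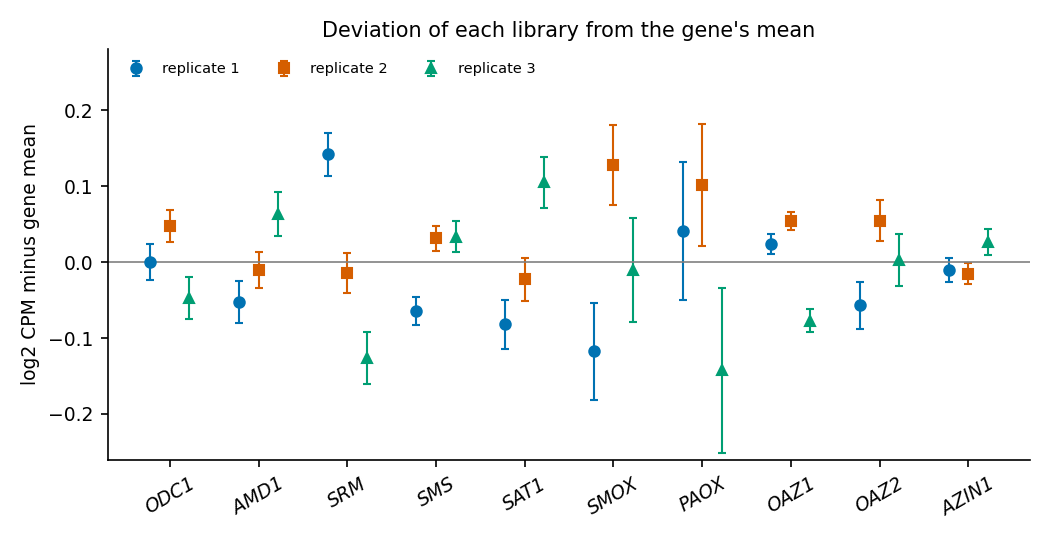
Log2 CPM of each library minus the gene's mean over the 3 libraries, for the 10 genes; bars are ± 1 counting standard error with each read pair taken as 1 observation. SRM falls from 0.14 in replicate 1 to -0.13 in replicate 3, SAT1 runs the other way from -0.08 to 0.10, and AZIN1 stays within 0.03 of its mean.

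**Figure D4:**
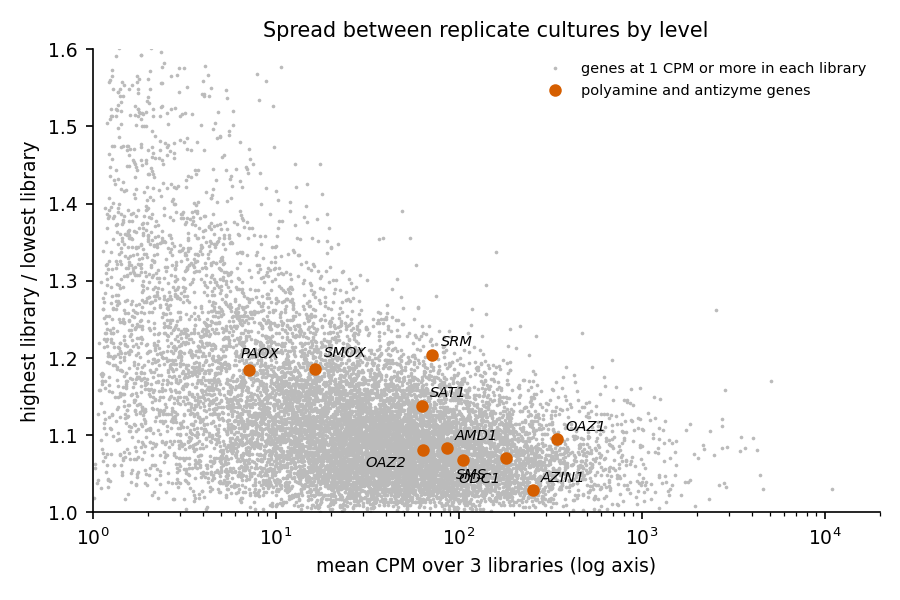
Fold between the highest and the lowest library against mean CPM (log axis) for 12681 detected genes (grey) and the 10 genes (orange); 78 genes lie above the axis limit of 1.6. SRM is near the upper edge of genes at its level, AZIN1 near the lower edge, and the other 8 lie between.

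These calls are sensitive to what counts as noise. The files appear to count each mate of a pair, since more genes have 2 counts than 1 in every library (712 against 485 in replicate 1). With each pair counted once, 5 of the 10 genes were called by edgeR, against 28.5% of all genes: SRM, SMS, SAT1, SMOX and OAZ1. With a coefficient of variation of 0.05 allowed between cultures, 0 of the 10 were called and 1.15% of all genes. The 10 genes had coefficients of variation of CPM from 1.57% for AZIN1 to 9.40% for SRM, and the biological coefficient of variation estimated over all genes was 0.0544. Left with 2 libraries, edgeR called 7 of the 10 without replicate 1 (37.8% of all genes), 5 without replicate 2 (39.2%) and 4 without replicate 3 (24.2%). Without replicate 1, the edgeR adjusted p rose to 0.941 for SMS, 0.185 for OAZ2 and 0.0588 for SMOX, and PAOX passed at 0.029. Without replicate 2, it was 0.104 for ODC1, 0.209 for SMOX, 0.168 for OAZ2 and 0.0976 for AZIN1. Without replicate 3, it was 0.114 for ODC1, 0.23 for AMD1, 0.146 for SAT1, 0.0599 for OAZ1 and 0.848 for AZIN1. SRM stayed under 0.05 in each of these fits, with its highest adjusted p, 0.00118, without replicate 1. AZIN1 also missed the threshold with no filter (0.0846) and with 1 CPM required in each library (0.0742).

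The difference between replicates 3 and 1 moved with base composition, and replicate 2 does not enter it. SRM and PAOX, with transcripts of 63.7% and 63.3% GC, were lower in replicate 3 than in replicate 1 by a log2 difference of -0.27 and -0.18. SAT1, AMD1, SMS and AZIN1, all under 50% GC, were higher there. SMOX, at 61.1% GC, went the other way, with a difference of 0.11. In between, ODC1 (51.2% GC), OAZ2 (52.8%) and OAZ1 (54.0%) had differences of -0.05, 0.06 and -0.10. Over the 10 genes the Spearman rho between GC content and this difference was -0.685, and over 14336 tested genes it was -0.511, a description of 2 libraries whose genes share the same preparation. With offsets for GC content and length in each library, edgeR called 8 of the 10 genes, against 37.6% of all genes, and the edgeR adjusted p of AMD1 rose to 0.819 while that of AZIN1 fell from 0.0417 to 0.000442 and that of SMOX was 0.000379. With these offsets and each pair counted once, 2 were called, against 12.5% of all genes: SRM (edgeR adjusted p = 0.0012) and OAZ1 (0.0204). The part of base composition in the differences that remained was not tested.

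**Figure D5:**
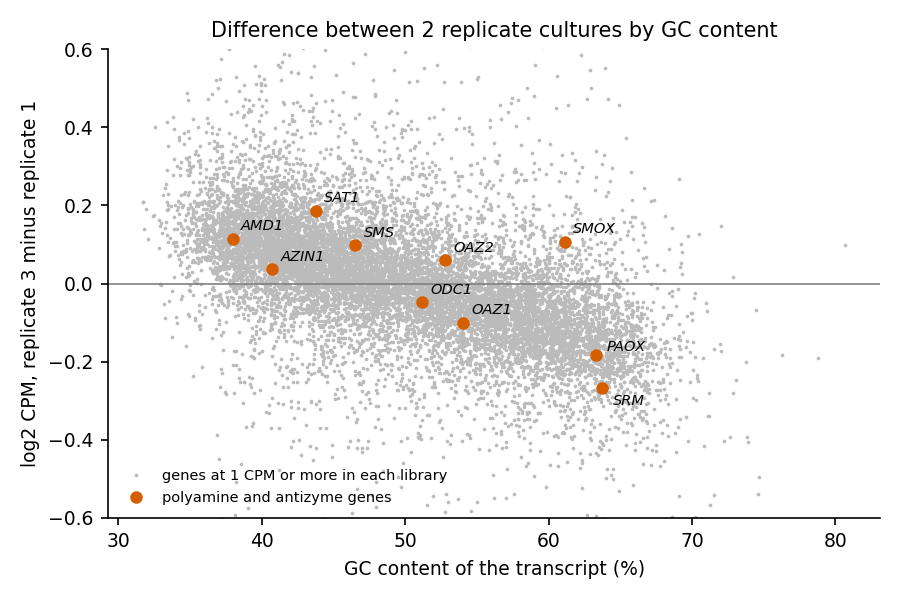
Log2 CPM in replicate 3 minus replicate 1 against the GC content of the transcript, for 12601 detected genes with a GC value (grey) and the 10 genes (orange); 82 genes lie outside the axis limits of 0.6 in either direction. SRM and PAOX lie low on the GC-rich side, SAT1 and AMD1 high on the GC-poor side, and SMOX lies above most genes of its GC content.

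The close relatives of the 10 genes were all detected but mostly low. SAT2, related to SAT1 in sequence, was at 37.8, 44.2 and 43.5 TPM and was the 1 of 4 called, against 52.9% of all genes (edgeR adjusted p = 0.000461, and 0.0412 with each pair counted once). AZIN2, a further antizyme inhibitor listed in the files under its older symbol ADC, was at 10.3 ± 0.214 TPM, far under AZIN1. SATL1 was at 2.27 ± 0.0485 TPM. OAZ3, the antizyme known from the testis, was listed at 17.9 ± 1.39 TPM. Its counted record, of 851 bases, shares 360 bases with exons of genes on the other strand. Of these, 178 bases are shared with MRPL9, a mitochondrial ribosomal protein gene at 92.4 ± 2.58 TPM. JSRP1, which overlaps OAZ1 on the other strand, had 0 counts. Whether reads of other genes entered the OAZ3 count was not tested. A second OAZ3 record, of 3789 bases, held only 18, 31 and 12 counts against 463, 560 and 315 in the counted record, so the OAZ3 level is uncertain.

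The supply of ornithine was represented by 7 of 9 genes detected, of which 5 of 7 tested were called by edgeR, against 52.9% of all genes, and 1 of 7 with each pair counted once, against 28.5%. The highest were OAT, ornithine aminotransferase, at 134 ± 3.19 TPM, ALDH18A1, which starts ornithine synthesis from glutamate, at 82.5 ± 1.13 TPM, and the arginine transporter SLC7A1 at 57.2 ± 3.06 TPM. OTC, the urea cycle enzyme of liver, had 0 counts in all 3 libraries. Of the methionine cycle and salvage genes, 8 of 10 were detected and 3 of 8 tested were called, against 52.9% of all genes, and 2 with each pair counted once, against 28.5%. AHCY, which clears S-adenosylhomocysteine, was at 299 ± 15.6 TPM, and MAT2A and MAT2B, the enzyme and regulator that make S-adenosylmethionine outside the liver, were at 241 ± 2.26 and 120 ± 3.85 TPM. MAT1A, the liver form, had 0 counts.

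MTAP recycles methylthioadenosine, the by-product that SRM and SMS release with each aminopropyl transfer. It had 0, 0 and 3 counts in replicates 1, 2 and 3. These are under a floor set at 6 counts (3 read pairs), which is 0.0877, 0.0708 and 0.11 CPM. This floor was chosen, not estimated from background reads. The salvage enzymes that act after MTAP were detected. MRI1 was at 40.8 ± 1.01 TPM, APIP at 77.6 ± 5.74, ENOPH1 at 53.6 ± 2.06 and ADI1 at 47.3 ± 2.66. The values of MTAP and of these 4 genes are given because SRM and SMS were both present at over 100 TPM, and these genes were named after their values were seen.

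Spermidine is also the substrate for hypusine, the modified lysine of the translation factor EIF5A. All 4 genes of this step were detected, and 3 were called by edgeR with reads or pairs as the unit, against 52.9% and 28.5% of all genes. EIF5A was at 1024 ± 33.8 TPM, above OAZ1, DHPS, which attaches the spermidine part, was at 167 ± 4.65 TPM, and DOHH, which completes it, was at 12.6 ± 1.73 TPM. The paralog EIF5A2 was the lowest at 9.99 ± 0.547 TPM. Of 10 genes linked to polyamine transport, 8 were detected and 6 of 8 tested were called, against 52.9% of all genes, and 5 with each pair counted once, against 28.5%. CAV1, the caveolae protein, was at 365 ± 15.3 TPM, SLC3A2 at 269 ± 6.06 TPM and the P-type ATPase ATP13A3 at 80.8 ± 6.40 TPM. SLC22A2 was the lowest, with 18, 2 and 16 counts. Among the regulators, MYC, a transcription factor known to activate ODC1, was at 60.9 ± 1.68 TPM, its partner MAX at 46.9 ± 1.52 and NQO1, which binds ODC1 protein, at 157 ± 0.880. MYCN had 0 counts, and MYC was the 1 of 3 tested that was called, against 52.9% of all genes (edgeR adjusted p = 0.0189). With each pair counted once, 0 of the 3 were called, against 28.5% of all genes, and the edgeR adjusted p of MYC was 0.204.

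Gene totals per library were 68663982, 84880442 and 54512221 counts in replicates 1, 2 and 3, so replicate 3 is the shallowest and its values carry the largest counting error. Nothing in the labels beyond the words biological replicate says how the cultures were kept apart, so p-values concern these 3 samples only. They set the spread against counting noise, so at the same fold a gene with more counts has a smaller p. The labelled line was checked against markers: VIM was at 4561 ± 160 TPM, the epithelial keratins KRT8 and KRT19 at 748 ± 40.5 and 660.0 ± 51.2, EPCAM at 17.7 ± 1.23 and CDH1 at 0.606 ± 0.230. The receptors ESR1 and PGR were at 0.0120 and 0.0601 TPM, and ERBB2 was at 28.9 ± 1.67 TPM, percentile 56.3 of detected genes. Markers of other cells were low, with 1 of 5 leukocyte genes detected (summed level 2.82 to 3.46 TPM per library, ITGAM among those at 0), 1 of 4 endothelial genes (0.983 to 1.40) and 2 of 5 fibroblast genes (7.97 to 9.42, DCN at 0).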

How the data were processed

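RNA from 3 control siRNA cultures was read as pairs of 100 bp (TruSeq), per the labels' protocols. The submitters' processing notes name FastQC, TopHat2, Cufflinks and hg19, with versions not given. The authors deposited whole-number counts per RefSeq record, unnormalized; the counting tool, strand setting and treatment of multiple hits are not given in the sources used here. Record totals were 136743528, 168901029 and 108482481.

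A gene's count was its record with the largest total, and the 10 genes used only records with the symbol. Of 6937 records without a symbol, 619 stayed unmatched (0.952%, 0.960% and 0.944% of record totals) and were left out. CPM used edgeR 4.0.16 TMM factors in R 4.3.3. TPM used GENCODE 29 lengths matched to the counted record, or else the gene's longest transcript, found for 98.8% of genes with a count. The exon and frameshift sequences are from GENCODE 29, GRCh38.

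Variation between cultures was tested in edgeR by fitting a common mean at dispersion 0 and setting the residual deviance against a chi-square with 2 degrees of freedom, after filterByExpr, adjusted by Benjamini-Hochberg over all genes and called at 0.05. No comparison of conditions is possible with 1 group. Alternatives covered normalization (DESeq2 1.42.0), filters, pairs, GC content, records, transcript length and leaving out a library. For pairs, the deviance was divided by 2 and the counts and filter were left unchanged. Tables were handled with pandas 2.3.3.

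The 10 genes and the neighbouring lists were chosen with earlier results of these data known. All 10 genes are named, all 4 relatives, and of each neighbouring pathway list the 3 highest and the lowest by mean TPM; of the marker lists, the breast line markers are named and the others summarised; MTAP, the other salvage genes and MTAP's neighbours were named after their values were seen. The pair-once fit with GC offsets, the unnamed SAT1 record and the longest matched transcript were added after seeing the data. Some genes and a genotype detail are not reported here.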

Additional observations from a re-analysis of the deposited data

How the results depend on the processing

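Of the 10 genes, 9 varied beyond counting noise, and the count was 5 with each pair counted once, 0 with a coefficient of variation of 0.05 allowed, 2 with pairs counted once and GC content and length offsets, and 4 to 7 with a replicate left out. Over all genes, 7654 were called, 4118 with pairs, 167 with the variation allowed, 1807 with pairs and offsets, and 3573 to 5663 with a replicate left out. DESeq2 size factors or total counts alone gave 9 of 10 (52.9% and 53% of all genes), no filter, 1 CPM in each library or the GC and length offsets alone gave 8 (44.2%, 58% and 37.6%), and summed records, which repeat shared reads, gave 10 (62.4%).

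Ratios moved with gene model and length. On CPM they were 0.259 for ODC1 over OAZ1 plus OAZ2, 0.414 for ODC1 over AZIN1, 5.36 for OAZ1 over OAZ2, 0.397 for SRM over SMS, 1.23 for ODC1 over AMD1, 2.68 for SAT1 over SMOX plus PAOX and 5.14 for synthesis over catabolism. With the median length over transcripts they were, in that order, 0.182, 0.231, 3.91, 0.722, 2.91, 4.09 and 4.49. Summed records gave 0.226 for ODC1 over AZIN1, 0.862 for ODC1 over AMD1, 1.70 for SAT1 over SMOX plus PAOX and 2.57 for synthesis over catabolism. The longest matched transcript gave 0.737 for ODC1 over AZIN1. With a replicate left out the 7 ratios stayed at 0.119 to 0.120, 0.436 to 0.457, 8.77 to 9.27, 0.533 to 0.607, 1.56 to 1.65, 4.99 to 5.54 and 3.04 to 3.24. The median percentile was 75.9 with CPM and 90.9 among genes with any count, and 86.4 to 86.7 with a replicate left out.

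No paired analysis was possible because the libraries form 1 group. Depth limits PAOX most: its counting error in replicate 3 was 5.31% with mates taken as independent and 7.52% with pairs. Lengths came from a later annotation than the counts, and no value here measures protein or enzyme activity.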

Other observations

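MTAP stood among neighbours that were also near 0. In RefSeq gene order, the 12 genes before it had 0 counts in all 3 libraries except KLHL9, with 4, 4 and 0. Among these were MIR31HG, IFNE and several IFNA genes. After MTAP, CDKN2A-AS1, CDKN2A, CDKN2B-AS1, CDKN2B and DMRTA1 had 0 counts, LINC01239 had 0, 2 and 0, and ELAVL2 had 6, 0 and 0. All of these values are at or under the chosen floor of 6 counts per library, and ELAVL2 in replicate 1 is at it. The next genes were well above it, with 407, 480 and 294 counts for TUSC1 and 2110, 3019 and 1845 for CAAP1, which was at 52.1 ± 3.59 TPM (SD, n = 3). These neighbours were looked at after the MTAP value was seen.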
